A study of Mus musculus with 38 samples.

Results

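Gpr17 and Cnksr3 are 2 of the 15644 named genes measured on 38 mouse Affymetrix arrays. They were chosen by name, with earlier results of these data known. Each had 1 probe set (Entrez gene 574402 for Gpr17 and 215748 for Cnksr3), and both passed the filter on low values, as did 9799 genes in all. The arrays carried RNA bound to tagged ribosomes of a single cell population, purified by translating ribosome affinity purification, or total RNA of the same kind of tissue.

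The 5 cortical populations came from adult cortex, with 3 arrays each, and each line carried the ribosome tag under a different gene. These were Snap25 for neurons, Aldh1l1 for astrocytes, Cnp for mature oligodendrocytes, Pdgfra for oligodendrocyte progenitors and Olig2 for cells of the whole oligodendrocyte lineage. Their reference, called total RNA of cortex here, was 5 arrays whose source label reads only Cortex. The titles of these arrays, and of those labelled total RNA of tumours, carry UB, where those of bound RNA carry IP. The titles do not spell out UB. Tumours of 3 glioma models gave bound RNA of their Olig2 cells, and total RNA beside it. The labels name the models Pdgf, Pdgf Cre and Recruited without giving the alleles, and each fraction again had 3 arrays. The strain was a mixture of C57BL/6J, FVB and Swiss-Webster throughout, and cortical samples were pools of at least 2 mice. How many mice a tumour array stands for, and the age of any animal beyond adult, are not given in the sources used here. A tag driven by a gene labels every cell that uses it, so a population is defined by its driver and not by a single stage.

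Gpr17 is a G protein-coupled receptor of the oligodendrocyte lineage. It is made for a short time, by precursors that have committed to differentiate and do not yet make myelin, and it is known as a brake on their last step. In mice, forced Gpr17 blocks myelination, loss of Gpr17 brings it forward, and the inhibitors of differentiation Id2 and Id4 have been linked with the receptor. Uracil nucleotides and cysteinyl leukotrienes have been reported as its ligands, and it stands in sequence between the P2Y nucleotide receptors and the cysteinyl leukotriene receptors. Cnksr3 belongs to the CNK family of scaffold proteins, which hold parts of the RAS, RAF, MEK and ERK pathway together at the membrane. It is best known from mouse kidney, where aldosterone induces it and it raises the activity of the epithelial sodium channel.

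The 250 bases before the Cnksr3 start are shown because Olig2, whose gene drives the tag in the Olig2 populations, is an E-box binding protein. The sequence is from RefSeq on GRCm38.p6, chr10:7212238-7212487, minus strand, and 59.2% of its bases are G or C. Capitals mark matches on either strand to the E-box CANNTG and to ACAAAG, a core bound by Sox proteins; no match overlaps another.

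Cnksr3: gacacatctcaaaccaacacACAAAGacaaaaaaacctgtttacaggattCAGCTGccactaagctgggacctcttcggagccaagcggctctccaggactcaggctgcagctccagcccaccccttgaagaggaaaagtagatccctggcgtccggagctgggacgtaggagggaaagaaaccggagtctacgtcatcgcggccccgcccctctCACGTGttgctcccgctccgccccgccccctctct

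The E-box was found 2 times, as CAGCTG from 200 bases and as CACGTG from 35 bases before the start, and ACAAAG was found 1 time, from 230 bases before it. Of 27025 mouse promoters of the same length, 1 per gene, 66.04% held a CANNTG and 16.46% an ACAAAG, so these matches are a description of the sequence only.

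Levels are log2 signals after quantile normalization over the 38 arrays, as mean ± SD. A gene passed, and is said to have risen or fallen, at a change of 2-fold or more with a limma adjusted p below 0.05. A mean under log2 50 (5.64) is called dim, and a fold against a dim group is a lower bound, in which each array of that group counts as no lower than the limit and the other group keeps its mean. Nothing in the labels says that arrays of a group came from separate mice or pools, so p-values measure the spread between these arrays, which may be partly technical. In bulk RNA of this kind, fewer cells of a type and less RNA per cell cannot be told apart. The populations carried their own markers: 10 of 10 measured neuron markers, 9 of 9 astrocyte, 10 of 10 mature oligodendrocyte and 9 of 9 progenitor markers were above the dim limit in the matching bound RNA. Each of these counts includes the gene that drives the tag of the population. Bound RNA also carried markers of other cells above the dim limit. Progenitor arrays held 10 of 10 mature oligodendrocyte and 8 of 10 neuron markers, mature oligodendrocyte arrays 9 of 10 neuron markers, and cortical Olig2 arrays 7 of 9 astrocyte and 6 of 10 neuron markers. Some libraries of tumour total RNA stood apart from their group. Array 3 of Recruited total RNA averaged 4.39 over 6 markers of dividing cells, against 9.86 and 10.13 on the other 2 arrays. Its progenitor markers averaged 6.71, against 10.22 and 9.48, and its neuron markers 11.06, against 8.08 and 8.45. For markers of pericytes, smooth muscle and fibroblasts, array 2 of Recruited total RNA averaged 10.08, against 6.90 and 7.57, and array 1 of Pdgf total RNA 7.71, against 6.04 and 6.17. Leaving out either of these 2 arrays changed no call of Gpr17 or Cnksr3.

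**Figure D1:**
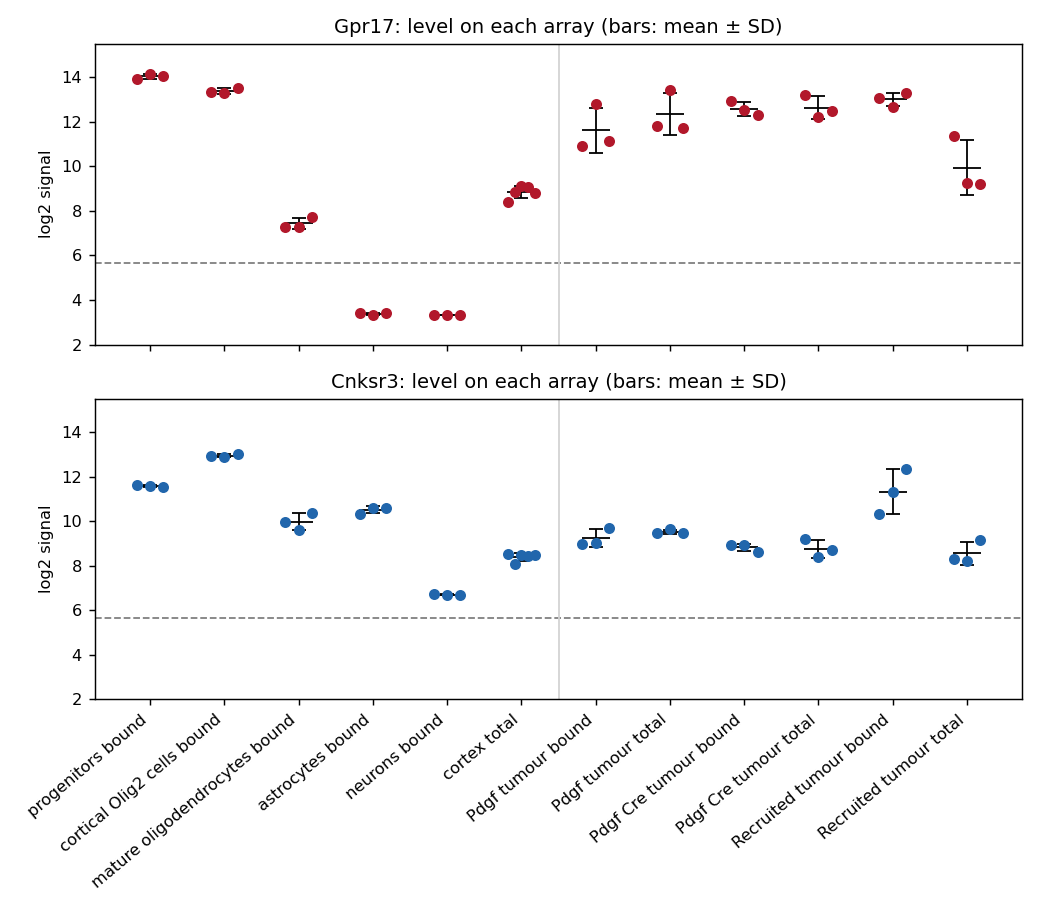
Level of Gpr17 (top) and Cnksr3 (bottom) on each of the 38 arrays, as log2 signal, for the 6 cortex groups and, right of the grey line, the 6 tumour groups; points are arrays, bars are mean ± SD, and the dashed line is the dim limit of 5.64. Gpr17 lies under the limit in astrocytes and neurons and above 10.9 on every array of tumour bound RNA, while Cnksr3 is above the limit on every array.

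Gpr17 was highest in progenitors, with levels of 13.93, 14.16 and 14.06 (14.05 ± 0.11, n = 3). Cortical Olig2 cells followed with 13.33, 13.30 and 13.53 (13.39 ± 0.12, n = 3), and the arrays of these groups did not overlap. Among Olig2 cells of tumours, Recruited arrays read 13.06, 12.69 and 13.29 (13.01 ± 0.30), Pdgf Cre arrays 12.93, 12.53 and 12.30 (12.59 ± 0.32) and Pdgf arrays 10.91, 12.80 and 11.15 (11.62 ± 1.03). The spread of the Pdgf arrays thus came from array 2, which reached the Pdgf Cre and Recruited arrays. Total RNA of Pdgf tumours showed the same high array, at 11.84, 13.42 and 11.74 (12.33 ± 0.94), and Pdgf Cre total RNA read 13.22, 12.22 and 12.49 (12.64 ± 0.52). Recruited total RNA was split the other way, with 11.38 on array 1 and 9.26 and 9.19 on arrays 2 and 3 (9.94 ± 1.25). Cortex total RNA held 8.41, 8.84, 9.12, 9.08 and 8.79 (8.85 ± 0.28, n = 5). Mature oligodendrocytes were lower than their tissue, at 7.29, 7.29 and 7.74 (7.44 ± 0.26). Astrocytes, at 3.31 to 3.42, and neurons, at 3.31 to 3.32, were dim, and in each the 3 deposited values were identical before normalization. Deposited values were also identical on arrays 2 and 3 of progenitors and on arrays 1 and 2 of mature oligodendrocytes.

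In the order of the 12 group means of Gpr17, 6 of 11 neighbouring groups had overlapping arrays. These were the 5 steps along Recruited bound, Pdgf Cre total, Pdgf Cre bound, Pdgf total, Pdgf bound and Recruited total RNA, and the step between astrocytes and neurons. The means spanned 10.74 log2 units. The highest Recruited bound array, at 13.29, lay just under the lowest array of cortical Olig2 cells, at 13.30. Array 2 of Pdgf total RNA, at 13.42, lay within the range of cortical Olig2 cells. Some groups further apart in the order overlapped too: the highest Pdgf bound array, at 12.80, lay above the lowest Recruited bound array, at 12.69. Others did not: no array of Recruited total RNA reached those of Recruited bound RNA or of either Pdgf Cre fraction. Some of these overlaps depended on the scale. On the deposited scale Recruited bound array 3 read 13.47, above cortical Olig2 cells, at 13.13 to 13.40. Array 2 of Pdgf total RNA, at 13.12, lay under cortical Olig2 cells there. The highest Pdgf bound array, at 12.75, lay under the lowest Recruited bound array, at 12.85.

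Cnksr3 had its highest level in cortical Olig2 cells and not in progenitors. Cortical Olig2 cells read 12.95, 12.89 and 13.01 (12.95 ± 0.06, n = 3), and progenitors 11.63, 11.59 and 11.56 (11.59 ± 0.03, n = 3). The arrays of these groups did not overlap. Recruited tumour bound RNA varied widely, at 10.35, 11.31 and 12.36 (11.34 ± 1.01), and spanned the progenitor level. Astrocytes read 10.33, 10.62 and 10.59 (10.51 ± 0.16), and mature oligodendrocytes 9.98, 9.62 and 10.36 (9.99 ± 0.37). Both of these populations, where Gpr17 was dim or low, thus carried Cnksr3 above every array of cortex total RNA, which read 8.52, 8.10, 8.48, 8.44 and 8.51 (8.41 ± 0.18, n = 5).

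In the other 5 tumour groups Cnksr3 lay between 8.23 and 9.69 on every array. Pdgf tumours read 8.99, 9.05 and 9.69 in bound RNA (9.24 ± 0.39) and 9.47, 9.64 and 9.49 in total RNA (9.53 ± 0.09). Pdgf Cre tumours read 8.95, 8.91 and 8.63 in bound RNA (8.83 ± 0.17) and 9.20, 8.39 and 8.70 in total RNA (8.76 ± 0.41). Recruited total RNA read 8.32, 8.23 and 9.16 (8.57 ± 0.51), of which the 9.16 was on array 3, with few markers of dividing cells and high neuron markers. Neurons were lowest, at 6.72, 6.70 and 6.70 (6.70 ± 0.01), and their deposited values were again identical. So were those of Cnksr3 on arrays 1 and 2 of cortical Olig2 cells, arrays 3 and 4 of cortex and arrays 2 and 3 of Pdgf total RNA. Of 11 neighbouring groups in the order of Cnksr3 means, 8 overlapped; the exceptions were cortical Olig2 cells over progenitors, Pdgf over Pdgf Cre bound RNA, and cortex total RNA over neurons. The means spanned 6.25 log2 units, and no group was dim.

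Each cortical population was set against cortex total RNA to ask in which cells the transcripts are carried above the tissue; these comparisons share the same 5 cortex arrays. In progenitors Gpr17 rose 36.8-fold (log2 difference 5.20 ± 0.40 SE, adjusted p = 2.21e-12) and Cnksr3 9.08-fold (3.18 ± 0.27, adjusted p = 1.67e-11), where 48.2% of the genes tested passed. In cortical Olig2 cells both rose 23.3-fold, Gpr17 by a log2 difference of 4.54 ± 0.40 and Cnksr3 by 4.54 ± 0.27, where 56.1% passed. The genes parted in the other populations. In mature oligodendrocytes Gpr17 fell 2.65-fold (-1.41 ± 0.40, adjusted p = 0.00254) and Cnksr3 rose 2.99-fold (1.58 ± 0.27, adjusted p = 6.36e-06), with 52.9% of genes passing. In astrocytes Gpr17 fell at least 9.21-fold and Cnksr3 rose 4.29-fold (2.10 ± 0.27, adjusted p = 4.03e-08), with 61% passing. In neurons both fell, Gpr17 at least 9.21-fold and Cnksr3 3.26-fold (-1.71 ± 0.27, adjusted p = 3.79e-06), with 28.2% passing. With so many genes passing, that the 2 genes pass in these comparisons is no mark of them, and their directions and sizes carry the description. The fall of Gpr17 in mature oligodendrocytes did not pass with arrays scaled on their median (log2 difference -0.66).

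**Figure D2:**
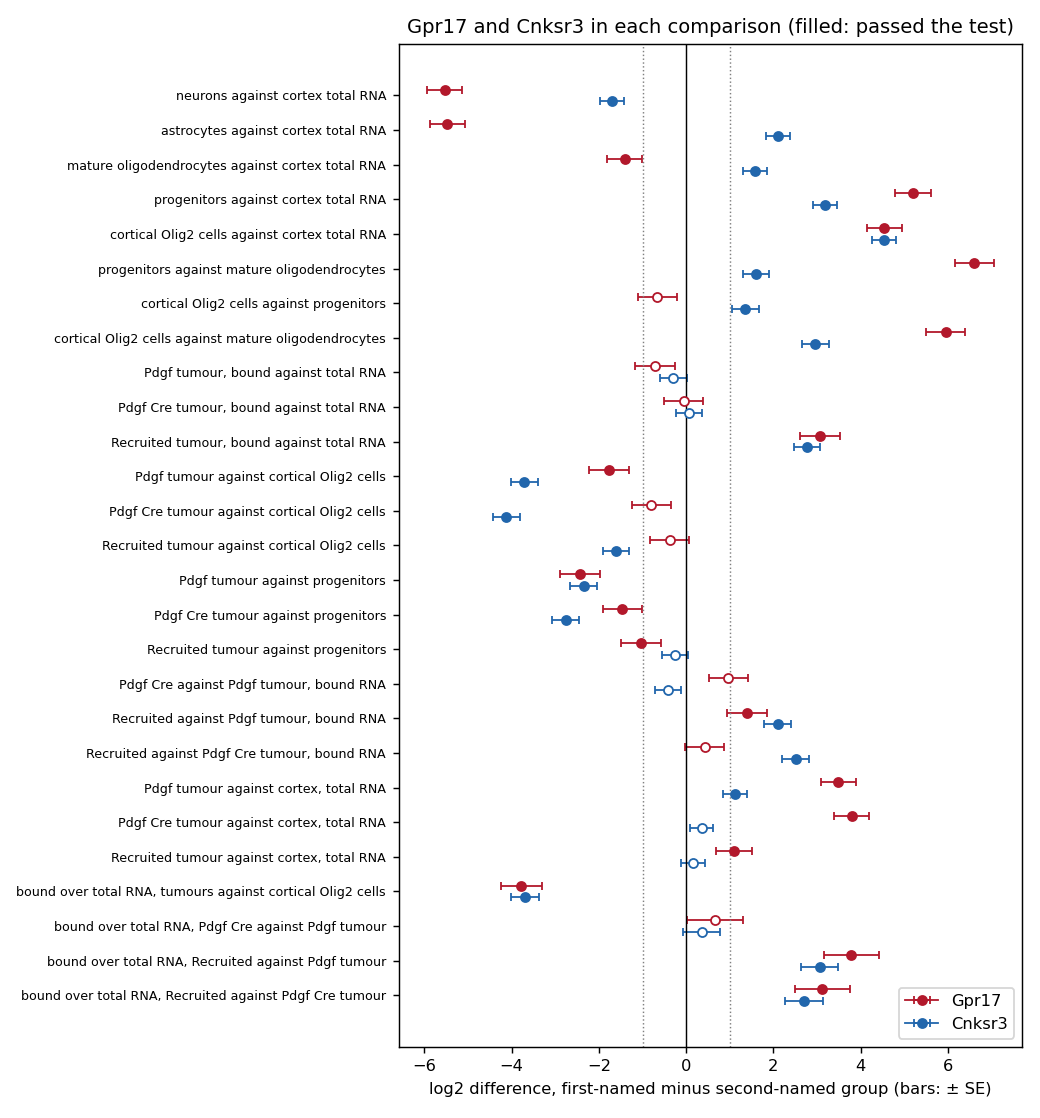
Log2 difference of Gpr17 (red) and Cnksr3 (blue) in each of the 27 comparisons, first-named minus second-named group, with bars of ± SE; filled points passed the test and dotted lines mark a 2-fold change. Gpr17 and Cnksr3 lie on opposite sides of 0 in astrocytes and in mature oligodendrocytes, and against cortical Olig2 cells Cnksr3 lies further below 0 than Gpr17 in each tumour model.

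Within the lineage, progenitors and mature oligodendrocytes mark an early and a late stage. Gpr17 was 97.6-fold higher in progenitors (log2 difference 6.61 ± 0.45 SE, adjusted p = 1.83e-13) and Cnksr3 3.04-fold higher (1.60 ± 0.30, adjusted p = 3.82e-05), where 38.7% of genes passed. On other scales Cnksr3 kept this direction with a smaller difference, 0.91 on the deposited scale, 0.65 with arrays scaled on their median and 0.85 on spike-in controls, none of which passed. Cortical Olig2 cells against mature oligodendrocytes gave 61.8-fold for Gpr17 (5.95 ± 0.45, adjusted p = 2.17e-12) and 7.80-fold for Cnksr3 (2.96 ± 0.30, adjusted p = 1.16e-09), with 39.1% passing. Cortical Olig2 cells against progenitors parted the genes: Cnksr3 rose 2.56-fold (1.36 ± 0.30, adjusted p = 0.000315), while Gpr17 had a log2 difference of -0.66 ± 0.45 (adjusted p = 0.211), with 37.1% passing. Cnksr3 was therefore higher in the Olig2 population than in either progenitors or mature oligodendrocytes. Astrocyte markers moved with it, at means of 8.35 to 8.46 on the arrays of cortical Olig2 cells, against 5.82 to 6.49 in progenitors and 6.12 to 6.57 in mature oligodendrocytes, and 7 of 9, against 5 of 9 in each of the others, were above the dim limit. Astrocytes themselves carried Cnksr3 at 10.51, under the 12.95 of cortical Olig2 cells. The part of astrocytes in the difference was not tested.

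Because probe sets differ in brightness, the genes were compared with each other only through the change of their difference, Gpr17 minus Cnksr3 on the same array. The log2 difference was 2.46 ± 0.14 in progenitors and 0.44 ± 0.07 in cortical Olig2 cells (SD, n = 3 each), a shift of 2.02 with no overlap. The exact permutation test (two-sided) gave p = 0.1, the smallest that 3 arrays against 3 can give, and 0.133 after adjustment over the 4 such tests. In mature oligodendrocytes the difference was -2.55 ± 0.19, against 0.44 ± 0.07 in cortical Olig2 cells, a shift of -2.99 with the same p. The difference was thus highest on the progenitor arrays, lower on those of cortical Olig2 cells and lowest on those of mature oligodendrocytes, with no overlap.

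The list of genes linked with committed precursors held 12 measured members besides Gpr17 and Cnksr3. Between progenitors and mature oligodendrocytes 7 of the 12 rose and 1 fell, with a median log2 difference of 1.44, against -0.02 over all genes tested, of which 38.7% passed. Of the 7, 3 were dim in both groups (Tcf7l2, Cemip2 and Vcan) and 4 were not. Bmp4, a secreted signal that restrains oligodendrocyte differentiation, rose at least 21.3-fold, and the kinase gene Fyn, active at the start of myelination, 7.50-fold. Itpr2, a calcium release channel of the endoplasmic reticulum, rose at least 1.81-fold. In cortical Olig2 cells against progenitors 2 of the 12 rose and 2 fell (median 0.35, against -0.01 over all), a share of 33.3%, against 37.1% over all genes. The risers were Cemip2, a cell surface hyaluronidase, at least 4.05-fold, and Tcf7l2, a Wnt pathway transcription factor, at least 2.23-fold, while Itpr2 fell at least 1.81-fold. The other that fell, Vcan, was dim in both groups.

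The list of factors known to act before or after Gpr17 in mouse held 9 tested genes. In progenitors against mature oligodendrocytes 5 of the 9 rose, 1 of them dim in both groups (median 1.22, against -0.02 over all genes, of which 38.7% passed). Sox6 and Sox5, which hold precursors back from differentiation, rose at least 17.3-fold and at least 4.24-fold, and Hes5, a Notch target, at least 25.4-fold. The inhibitors of differentiation Id2 and Id4 read 10.06 and 10.19 in progenitors and 9.23 and 9.34 in mature oligodendrocytes and did not pass. In cortical Olig2 cells against progenitors both rose, Id4 2.88-fold and Id2 2.83-fold. Both were higher still in astrocytes, at 13.86 for Id4 and 13.90 for Id2, whose markers moved the same way. The part of astrocytes in the rise of Id2 and Id4 was not tested. Of 10 genes of G protein coupling and desensitization, 1 rose and 2 fell in progenitors against mature oligodendrocytes (median 0.25), a share of 30%, against 38.7% over all genes: the arrestin gene Arrb1 rose 2.59-fold, the inhibitory G protein gene Gnai1 fell 2.20-fold and its regulator Rgs4 fell 2.65-fold.

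Receptors related to Gpr17 were mostly dim. Of 11 P2Y, cysteinyl leukotriene and related receptor genes measured, 9 did not pass the filter on low values; their highest group mean was 5.16, for P2ry1. The other 2, P2ry6 and P2ry13, were dim in all 5 cortical populations. In Pdgf tumours P2ry6 read 2.52 in Olig2 bound RNA, against 8.04 in total RNA, a fall of at least 5.26-fold. In Recruited tumours P2ry13 read 2.08 in bound RNA, against 7.05 in total RNA, a fall of at least 2.65-fold. Of 11 markers of microglia and macrophages, 2 or 3 were above the dim limit in the bound RNA of each model, with summed signals of 315 to 7203, against 7 or 8 in its total RNA, with 7144 to 50884. Cx3cr1, Itgam and P2ry12 were dim in all 6 groups. The part of these cells in the receptor differences was not tested. Of 4 tested genes of leukotriene synthesis, 1 rose and 2 fell in bound against total RNA of both Pdgf and Pdgf Cre tumours, where 32.2% and 38% of all genes passed. In Recruited tumours 1 of 4 fell, against 44.3% of all genes passing. This was Alox5ap, which serves 5-lipoxygenase: in Recruited tumours it read 3.85 in bound RNA and 7.43 in total RNA, a fall of at least 3.44-fold.

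The sodium channel that Cnksr3 is known to act on in kidney was dim in these samples. Its 3 subunit genes, Scnn1a, Scnn1b and Scnn1g, had highest group means of 2.93, 2.14 and 2.08. The regulators of the channel were measured. Sgk1, the kinase that aldosterone induces to keep the channel at the membrane, read 14.07 in progenitors and 15.03 in mature oligodendrocytes and did not pass between them. Tsc22d3, a gene induced by steroid hormones, fell 6.08-fold in progenitors against mature oligodendrocytes and rose 7.96-fold in cortical Olig2 cells against progenitors, the direction that Cnksr3 took in the second of these and not in the first. It read 11.95 in astrocytes. Of the sister scaffolds, Cnksr1 was dim in all 12 groups, and Cnksr2 was above the limit in cortex total RNA alone, at 6.24. Among the RAF pathway genes, Ralgds, which links RAS to RAL, fell 4.45-fold in progenitors against mature oligodendrocytes and rose 3.36-fold in cortical Olig2 cells against progenitors. Of the 5 tested genes of the CNKSR and RAF scaffold list, 2 fell in the first comparison, a share of 40%, against 38.7% over all genes. In the second, 3 rose and 1, dim in both groups, fell, a share of 80%, against 37.1% over all genes.

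Bound RNA of tumour Olig2 cells was set against bound RNA of cortical Olig2 cells, the same tag and fraction in tumour and cortex; the 3 comparisons share the cortical arrays. Cnksr3 fell in every model, 13.1-fold in Pdgf (log2 difference -3.71 ± 0.30 SE, adjusted p = 1.45e-11), 17.4-fold in Pdgf Cre (-4.12 ± 0.30, adjusted p = 1.25e-12) and 3.06-fold in Recruited tumours (-1.61 ± 0.30, adjusted p = 5.82e-05). Gpr17 fell in Pdgf tumours, 3.41-fold (-1.77 ± 0.45, adjusted p = 0.00146). In Pdgf Cre and Recruited tumours its log2 differences were -0.80 ± 0.45 (adjusted p = 0.128) and -0.38 ± 0.45 (adjusted p = 0.517). With only the groups compared in the fit, the fall of Cnksr3 in Recruited tumours no longer passed (-1.61, adjusted p = 0.0636). Of all genes tested, 32% passed in Pdgf, 36.1% in Pdgf Cre and 27.5% in Recruited tumours.

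The change of Gpr17 against that of Cnksr3 was tested on the per-array difference. Over the 9 tumour bound arrays it averaged 2.60 ± 1.20, between 0.93 and 3.99, against 0.44 ± 0.07, between 0.38 and 0.52, on the 3 arrays of cortical Olig2 cells. The lowest tumour value was that of Recruited array 3. All 9 tumour arrays were above all 3 cortical arrays. The shift of 2.16 had p = 0.00909 by the exact permutation test (two-sided), the smallest these numbers allow. The value adjusted over the 4 tests was 0.0364. The test takes the 9 arrays as interchangeable, although they came from 3 models, so it does not show a difference model by model. For 1 model alone, 3 arrays against 3, the smallest exact permutation p is 0.1. The models differed: the difference was 3.76 ± 0.20 in Pdgf Cre, 2.37 ± 1.21 in Pdgf and 1.67 ± 0.93 in Recruited tumours (n = 3 each). Progenitors, at 2.46 ± 0.14 and between 2.30 and 2.57, lay under all 3 Pdgf Cre arrays (3.62 to 3.99) and within the range of the other models, so the mean shift over the 9 arrays of 0.14 (exact permutation p = 0.827) averages models on both sides.

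Set against progenitors gene by gene, Gpr17 fell 5.40-fold in Pdgf (-2.43 ± 0.45, adjusted p = 3.11e-05), 2.76-fold in Pdgf Cre (-1.46 ± 0.45, adjusted p = 0.00561) and 2.05-fold in Recruited tumours (-1.04 ± 0.45, adjusted p = 0.0486). Cnksr3 fell 5.10-fold in Pdgf (-2.35 ± 0.30, adjusted p = 1.06e-07) and 6.78-fold in Pdgf Cre (-2.76 ± 0.30, adjusted p = 4.71e-09). In Recruited tumours its log2 difference was -0.25 ± 0.30 (adjusted p = 0.487). Of all genes, 39.8%, 43.5% and 35.4% passed in Pdgf, Pdgf Cre and Recruited tumours. The fall of Gpr17 in Recruited tumours lay at the threshold: leaving out any 1 of the 6 arrays, or using the deposited scale (-0.50), ended the call.

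**Figure D3:**
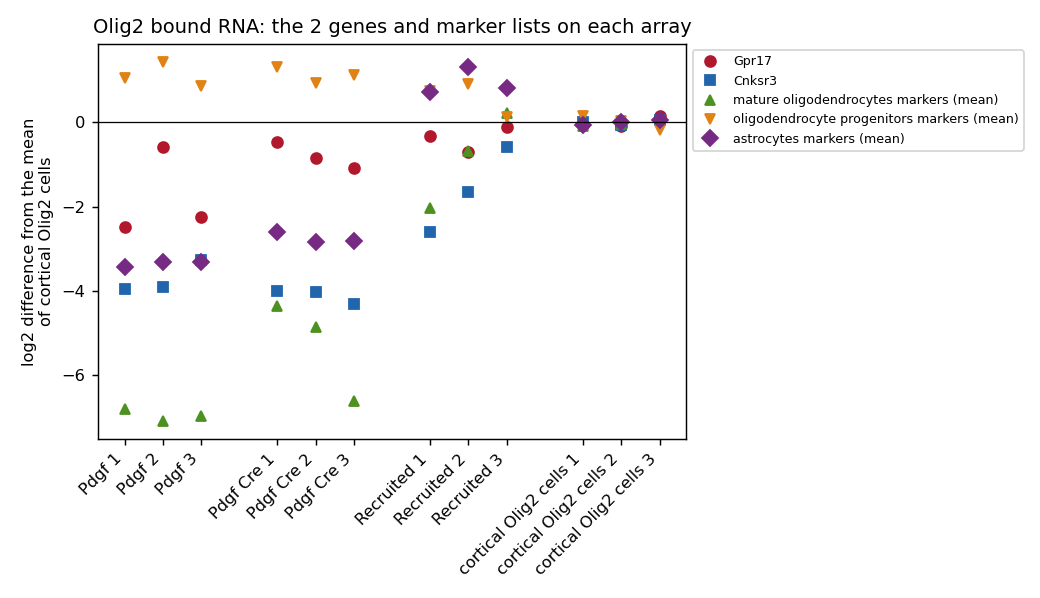
Gpr17, Cnksr3 and the mean of 3 marker lists on each array of Olig2 bound RNA, as the log2 difference from the mean of cortical Olig2 cells, for the 3 tumour models and, at right, cortical Olig2 cells. Cnksr3 and the mature oligodendrocyte markers lie below 0 on all 9 tumour arrays except for the markers on Recruited array 3, and both are closest to 0 on that array.

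Mature oligodendrocyte markers were, like Cnksr3, lower in the Pdgf models than in Recruited tumours, and among Recruited arrays they had the same order as Cnksr3. In Recruited bound RNA the markers averaged 11.07, 12.41 and 13.31 on arrays 1, 2 and 3, the arrays where Cnksr3 read 10.35, 11.31 and 12.36. All 10 of 10 were above the dim limit there, with summed signals of 48255 to 139908. In Pdgf bound RNA 5 of 10 were above it, with sums of 4170.0 to 5774, and in Pdgf Cre bound RNA 9 of 10, with sums of 3251 to 8861. Between the Pdgf models the orders differed: the markers averaged 8.74, 8.23 and 6.49 on the Pdgf Cre arrays, against 6.30, 6.02 and 6.14 on the Pdgf arrays, while Cnksr3 averaged 8.83 in Pdgf Cre and 9.24 in Pdgf. In cortical Olig2 cells 10 of 10 were above the limit, with sums of 108993 to 120308. The dim markers were Mog, Mag, Mobp, Aspa and Ermn in Pdgf and Aspa in Pdgf Cre bound RNA. Astrocyte markers, from a population that itself carries Cnksr3, averaged 9.12, 9.74 and 9.23 in Recruited, 4.99 to 5.09 in Pdgf and 5.58 to 5.81 in Pdgf Cre bound RNA, against 8.35 to 8.46 in cortical Olig2 cells. The part of these cells in the levels of Cnksr3 was not tested. For Gpr17, mature oligodendrocytes read 7.44 and astrocytes and neurons were dim.

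Against cortical Olig2 cells 7 of the 12 other genes of the committed precursor list fell and 2 rose in Pdgf (median -1.42, against 0.06 over all genes, of which 32% passed), and 7 fell and 1 rose in Pdgf Cre (median -1.92, against 0.03, with 36.1% passing). The riser in Pdgf Cre and 1 of the 2 in Pdgf were dim in both groups compared. Enpp6, a choline phosphodiesterase of newly formed oligodendrocytes, fell at least 5.78-fold in both, and Myrf, the transcription factor that turns on myelin genes, at least 19.2-fold in Pdgf tumours. In Recruited tumours 3 fell and 2 rose (median -0.19, against -0.00 over all, with 27.5% passing): Bmp4 fell 4.90-fold and Itpr2 rose at least 1.64-fold. The other riser was dim in both groups. Id4 fell at least 51.9-fold in Pdgf, 47.6-fold in Pdgf Cre and 2.50-fold in Recruited tumours, while Id2 rose 2.57-fold in Pdgf tumours and was not among the genes that passed in the other models. Of the aldosterone response genes, 3 of 5 fell in Pdgf, 4 of 5 in Pdgf Cre and 1 of 5 in Recruited tumours, where Fkbp5 rose 2.76-fold. Their medians were -1.03, -1.58 and 0.39, and with 5 genes the shares stand beside the 32%, 36.1% and 27.5% of all genes that passed. Among them Tsc22d3 fell 7.37-fold in Pdgf and 5.33-fold in Pdgf Cre tumours, where Nedd4l, the ubiquitin ligase that removes the sodium channel, fell at least 2.39-fold in each.

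Between models, in bound RNA, Cnksr3 set Recruited tumours apart. It rose 4.27-fold in Recruited against Pdgf (log2 difference 2.10 ± 0.30, adjusted p = 1.19e-06) and 5.69-fold against Pdgf Cre (2.51 ± 0.30, adjusted p = 3.76e-08), with no overlap of arrays. Gpr17 rose 2.63-fold in Recruited against Pdgf (1.40 ± 0.45, adjusted p = 0.0116), although the arrays overlapped, and its difference from Pdgf Cre was 0.43 ± 0.45 (adjusted p = 0.441). Without Pdgf array 1 or array 3 the rise of Gpr17 no longer passed (1.04 and 1.16). Between Pdgf Cre and Pdgf neither passed: Gpr17 differed by 0.97 ± 0.45 (adjusted p = 0.0964) and Cnksr3 by -0.41 ± 0.30 (adjusted p = 0.322). Without Pdgf array 2, the difference of Gpr17 was 1.56 and passed. Of all genes 25.8% passed for Recruited against Pdgf, 34.5% for Recruited against Pdgf Cre and 16.6% for Pdgf Cre against Pdgf.

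In total RNA, tumours were set against cortex, with the 5 cortex arrays shared. Gpr17 rose 11.2-fold in Pdgf (3.49 ± 0.40, adjusted p = 8.07e-09), 13.9-fold in Pdgf Cre (3.79 ± 0.40, adjusted p = 1.85e-09) and 2.14-fold in Recruited tumours (1.10 ± 0.40, adjusted p = 0.016). The last rested on array 1 of the tumours: without it the log2 difference was 0.38 and did not pass, and without array 3, high in neuron markers, it was 1.47 and passed. Without cortex array 1 it was 0.99, under 2-fold. Cnksr3 rose 2.18-fold in Pdgf tumours (1.12 ± 0.27, adjusted p = 0.00049); with arrays scaled on their median the difference was 0.45 and did not pass. Its log2 differences were 0.35 ± 0.27 in Pdgf Cre (adjusted p = 0.243) and 0.16 ± 0.27 in Recruited tumours (adjusted p = 0.60). Of all genes 50.5% passed in Pdgf, 47.9% in Pdgf Cre and 50.2% in Recruited tumours. Progenitor markers were also higher in tumours than in cortex, but did not have the order of Gpr17. They averaged 10.81 to 11.04 in Pdgf and 10.14 to 10.47 in Pdgf Cre total RNA, where Gpr17 averaged 12.33 and 12.64. Recruited total RNA had marker means of 6.71 to 10.22, and cortex 5.33 to 5.56. On Recruited array 2 the markers averaged 9.48, while Gpr17 read 9.26, near the highest cortex array, at 9.12. Of these 9 markers 9, 8 and 8 were above the dim limit in Pdgf, Pdgf Cre and Recruited tumours, against 5 in cortex, with summed signals of 29160 to 34622, 22874 to 29185 and 2214 to 22794, against 1042 to 1516. Their part in the rise was not tested.

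**Figure D4:**
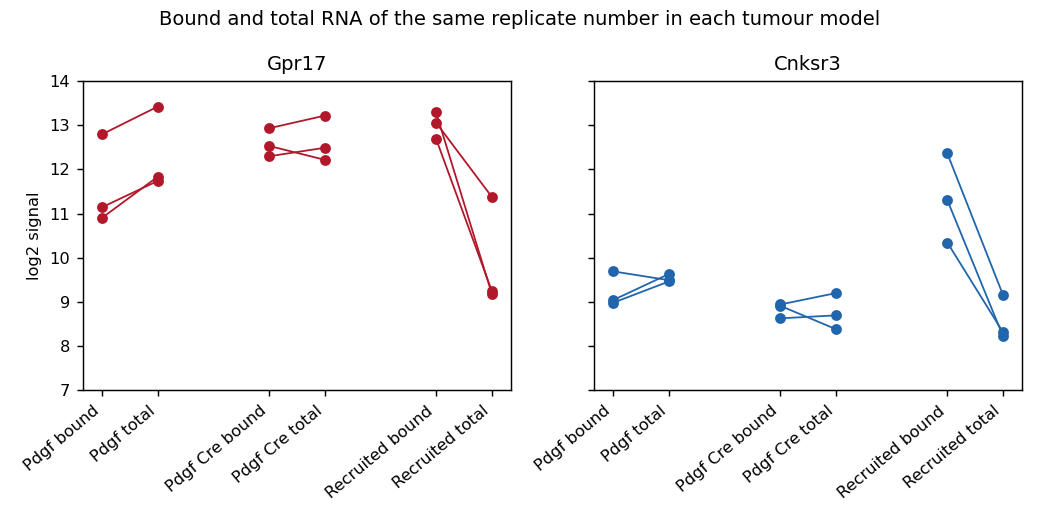
Log2 signal of Gpr17 (left) and Cnksr3 (right) in bound RNA, at the left end of each line, and total RNA of the same array number, at its right end, for 3 pairs in each tumour model. In Recruited tumours all 3 pairs lie higher in bound RNA for both genes, and in Pdgf and Pdgf Cre tumours the ends are close.

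Bound against total RNA asks whether the Olig2 cells of a tumour carry a transcript above the tumour as a whole. In Recruited tumours Gpr17 rose 8.40-fold in bound RNA (3.07 ± 0.45, adjusted p = 8.26e-07) and Cnksr3 6.81-fold (2.77 ± 0.30, adjusted p = 4.20e-09), where 44.3% of genes passed. Pairs of the same array number gave 1.68, 3.44 and 4.10 for Gpr17 and 2.03, 3.08 and 3.20 for Cnksr3, so every pair was higher in bound RNA. Without array 3 of total RNA the differences were 2.69 and 3.06, and both passed. In Pdgf tumours the pairs gave -0.93, -0.63 and -0.60 for Gpr17 (-0.72 ± 0.45, adjusted p = 0.186) and -0.48, -0.59 and 0.20 for Cnksr3 (-0.29 ± 0.30, adjusted p = 0.447). In Pdgf Cre tumours they gave -0.29, 0.31 and -0.19 for Gpr17 (-0.06 ± 0.45, adjusted p = 0.936) and -0.26, 0.53 and -0.07 for Cnksr3 (0.07 ± 0.30, adjusted p = 0.872). Neither gene passed in these models, in which 32.2% and 38% of genes did. The SE and p-values of bound against total RNA come from the fit that does not use the pairs. With the pair as a block these calls did not change.

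The direction in the Pdgf models depended on the scale. With arrays scaled on their median, the log2 differences in Pdgf tumours were 0.72 for Gpr17 and 0.78 for Cnksr3. In Pdgf Cre tumours that of Gpr17 was 1.31, which then passed. That scale raised bound RNA as a whole: the median of all genes was 1.00 in Pdgf and 0.92 in Pdgf Cre tumours. The 0.72 and 0.78 thus lay below the typical gene. In Recruited tumours both genes passed under every scale and with each array or pair left out, Gpr17 between 2.56 and 4.08 and Cnksr3 between 2.26 and 3.58. Of the 12 other genes of the committed precursor list 7 rose and 2 fell in Recruited bound against total RNA (median 1.66, against 0.13 over all, with 44.3% passing), with Bmp4 at least 6.29-fold and Enpp6 at least 2.74-fold higher. In Pdgf tumours 1 of the 12 rose and 3 fell (median -0.41, against 0.05 over all), a share of 33.3%, against 32.2% over all genes. The gene that rose and 1 of the 3 that fell were dim in both fractions.

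The differences of bound over total RNA were then compared between tissues. Averaged over the 3 models, the enrichment in tumour Olig2 cells minus that in cortical Olig2 cells was -3.78 ± 0.48 log2 units for Gpr17 (adjusted p = 8.09e-08) and -3.69 ± 0.32 for Cnksr3 (adjusted p = 4.85e-11), where 43.8% of genes passed. By model the difference from cortical Olig2 cells was -5.26 ± 0.60 in Pdgf, -4.60 ± 0.60 in Pdgf Cre and -1.47 ± 0.60 in Recruited tumours for Gpr17, and -4.83 ± 0.41, -4.47 ± 0.41 and -1.77 ± 0.41 for Cnksr3. Enrichment in Recruited exceeded that in Pdgf tumours by 3.79 ± 0.64 for Gpr17 (adjusted p = 1.70e-05) and 3.06 ± 0.43 for Cnksr3 (adjusted p = 9.49e-07), where 30% passed. Against Pdgf Cre the excess was 3.12 ± 0.64 for Gpr17 (adjusted p = 0.000234) and 2.70 ± 0.43 for Cnksr3 (adjusted p = 7.72e-06), where 26.7% passed. Pdgf Cre against Pdgf gave 0.66 ± 0.64 for Gpr17 (adjusted p = 0.568) and 0.36 ± 0.43 for Cnksr3 (adjusted p = 0.668), where 12.3% passed. Without array 3 of Recruited total RNA, the excess over Pdgf was 3.41 for Gpr17 and 3.35 for Cnksr3, the excess over Pdgf Cre 2.749 and 2.996, and all passed. Neuron markers differed between the total RNA of the models. In Recruited 9 of 10 were above the dim limit, all but Syt1, with summed signals of 30123 to 83087, against 7 of 10 in Pdgf, with 10166 to 17415, and 6 of 10 in Pdgf Cre, with 18719 to 24745. Olig2 itself, the gene of the tag, read 12.47 in cortical Olig2 bound RNA and 6.18 in cortex total RNA. In bound and total RNA of tumours it read 12.39 and 12.12 in Pdgf and 12.55 and 11.28 in Pdgf Cre. In Recruited tumours it read 12.70 and 11.37 (SD 1.67 in total RNA). Bound and total levels of Olig2 thus lay closer in each tumour model than in cortex. The part of neurons and of Olig2 cells in the ratios was not tested.

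Genes with a pattern like that of each gene were taken as the 5 with the highest Pearson correlation over the 12 group means, among 7869 genes whose highest group mean reached log2 200. The values are descriptions; groups share a tissue, a fraction or a normalization, and so are not independent. For Gpr17 they were Dpyd, which starts the breakdown of uracil and thymine (r = 0.936), Zswim5 (0.932), Arhgef7, an exchange factor for small GTPases (0.925), Mpzl1, a membrane glycoprotein (0.920), and Lims2, an adaptor of cell adhesions (0.918). Dpyd read 10.37 in progenitors, 8.32 in cortical Olig2 cells, 6.09 in mature oligodendrocytes, 3.61 in astrocytes and 3.17 in neurons. In tumour bound RNA it read 8.87 in Recruited, 8.33 in Pdgf Cre and 8.90 in Pdgf tumours.

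For Cnksr3 they were Parvb, an adhesion protein that binds actin (r = 0.921), the deacetylase gene Sirt2 (0.905), Fam102a (0.900), Plekhf1, an endosomal protein (0.894), and Gramd3 (0.881). Parvb read 8.43 in cortical Olig2 cells, 7.72 in progenitors, 7.03 in mature oligodendrocytes and 6.27 in astrocytes. In tumour bound RNA it read 8.31 in Recruited and was dim in Pdgf Cre, at 4.72, and in Pdgf, at 4.91. Gpr17 and Cnksr3 correlated at 0.477, which ranked Cnksr3 1208th for Gpr17 and Gpr17 1140th for Cnksr3. Over the 38 arrays in place of the 12 means, 4 of 5 genes were shared for Gpr17 and 5 of 5 for Cnksr3. By Spearman correlation 1 of 5 was shared for each, and over the 6 cortex groups 0 of 5.

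**Figure D5:**
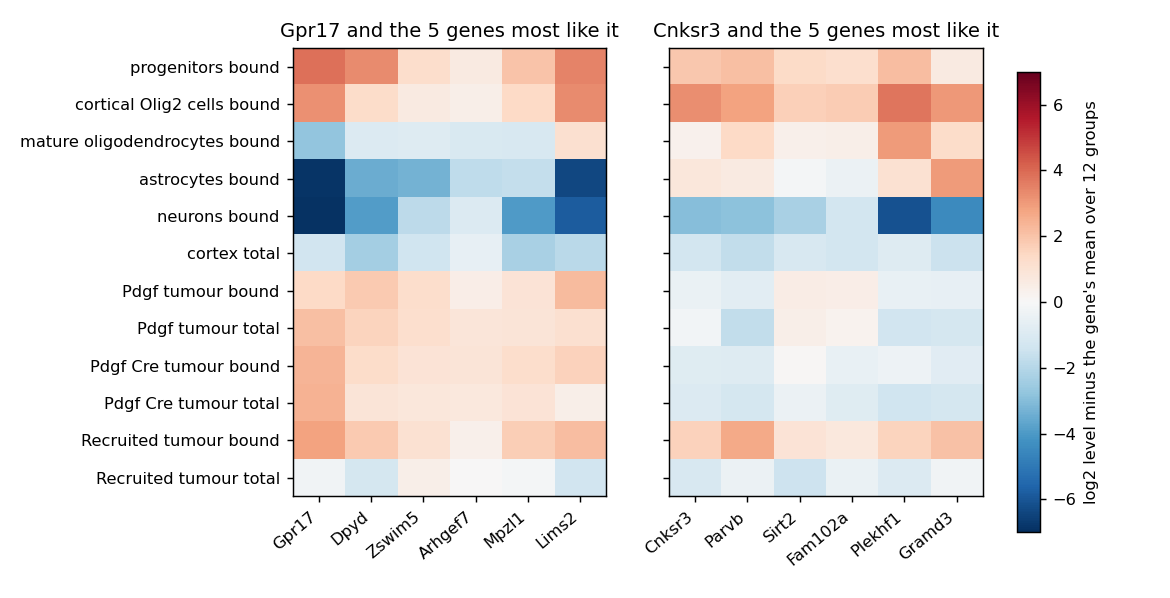
Level of Gpr17 (left) and Cnksr3 (right) and of the 5 genes most like each, as log2 level minus the gene's mean over the 12 groups, in each group from top to bottom; red is above and blue below the gene's mean. The genes beside Gpr17 are low in astrocytes and neurons and at or above their mean in tumour bound RNA, while those beside Cnksr3 are high in cortical Olig2 cells and in Recruited bound RNA.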

How the data were processed

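The samples were 38 one-colour Affymetrix arrays. The authors deposited log2 signals made with GCRMA, per the submitters' processing notes (version not given in the sources used here). Each group of arrays had its own lowest value, and 32.4% to 55.8% of the 15644 named genes had identical values on all arrays of a group, so the groups appear to have been processed separately. This can narrow the spread between arrays, and how groups were scaled to each other is unknown. The deposited log2 values were therefore quantile normalized over all arrays. Of 16395 probe sets, 64 array controls and 687 without a gene were left out, and other columns left unused numbered 0. Genes above log2 50 on at least 3 arrays were tested (9799, with 5845 removed) with limma 3.58.1 in R 4.3.3, in 1 fit of 12 group means (26 residual degrees of freedom), adjusted by Benjamini-Hochberg in each of 27 comparisons. The script was tested on simulated data. The exact permutation test used SciPy 1.17.1.

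Members and lists were chosen with earlier results of these data known. Named list genes are up to 4 with the largest changes among those that passed, and the genes most like each member are the 5 best by Pearson correlation. In each tumour model, same-numbered arrays of bound and total RNA deviated together (correlations of 0.266 to 0.626 over genes in the 9 pairs). They are shown as pairs and are paired in the replicate block. The SE and p-values given for bound against total RNA come from the fit of group means, which does not use the pairs. In other comparisons shared numbers do not pair arrays. Alternatives were the deposited, median and spike-in scales (9 control probe sets), no filter and one at log2 100, an intensity trend, only the groups compared, a replicate block, each array left out and, added after seeing the data, each tumour pair left out. The number of arrays limits the precision.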

Additional observations from a re-analysis of the deposited data

Results flagged for a closer look

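In cortex total RNA, the array 2 level of Cnksr3 lay far from the other 4 arrays, at 8.10, and 0.8065 of the range separated it from the nearest array, against Dixon's critical value of 0.71; the level of Gpr17 on the same arrays gave 0.5309. Chance flags about 1 in 20 such groups. The log2 difference of bound over total RNA differed between tumours and cortical Olig2 cells by -3.78 for Gpr17 and -3.69 for Cnksr3, averages over models that gave -5.26 and -4.83 in Pdgf, -4.60 and -4.47 in Pdgf Cre and -1.47 and -1.77 in Recruited tumours. It differed between Recruited and Pdgf tumours by 3.79 for Gpr17 and 3.06 for Cnksr3, and between Recruited and Pdgf Cre tumours by 3.12 for Gpr17 and 2.70 for Cnksr3. Each of these 6 differences passed the limma test of the difference itself. Bound and total levels of Olig2 also lay closer in tumours than in cortex, and the part of Olig2 cells was not tested.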

How the results depend on the processing

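Of 54 results of the 2 genes, 39 passed, and 38 kept their direction and their side of the threshold under every alternative run. The other 16 are given here as log2 differences; the cause was not tested. On the deposited scale, progenitors against mature oligodendrocytes gave 0.91 for Cnksr3, Pdgf Cre bound against total RNA 0.18 for Gpr17 and -0.28 for Cnksr3, and Recruited tumours against progenitors -0.50 for Gpr17 and 0.23 for Cnksr3. On the median scale, Gpr17 gave -0.66 in mature oligodendrocytes against cortex, 0.72 in Pdgf and 1.31 in Pdgf Cre bound against total RNA (the last passed, adjusted p = 0.00515), -0.97 and -0.54 in Pdgf Cre and Recruited tumours against progenitors, and 0.50 in Recruited tumour against cortex total RNA. Cnksr3 gave 0.65 in progenitors against mature oligodendrocytes, 0.78 in Pdgf bound against total RNA, 0.20 in Recruited tumours against progenitors, and 0.45, -0.30 and -0.29 in Pdgf, Pdgf Cre and Recruited tumour against cortex total RNA. On the spike-in scale, Cnksr3 gave 0.85 in progenitors against mature oligodendrocytes and -0.19 in Pdgf Cre bound against total RNA, where Gpr17 gave 0.28. Gpr17 gave -1.07 and -0.96 in Pdgf Cre and Recruited tumours against progenitors and 1.21 in Recruited against Pdgf bound RNA. Of these values on the 3 scales, only the 1.31 passed, where the median of all genes was 0.92.

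Gpr17 in Recruited tumours against progenitors stayed at -1.04 and no longer passed with no filter (adjusted p = 0.0706) or with a replicate block (adjusted p = 0.0564). The block changed no other call; the numbers of those 2 groups do not pair arrays. With only the groups compared in the fit, Cnksr3 in Recruited tumours against cortical Olig2 cells (-1.61), Gpr17 in Recruited against Pdgf bound RNA (1.40) and Gpr17 in Recruited tumour against cortex total RNA (1.10) no longer passed.

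With each array left out in turn, Gpr17 ranged from -1.18 to -0.88 in Recruited tumours against progenitors, from 0.38 to 1.47 in Recruited tumour against cortex total RNA, from -0.27 to 0.23 in Pdgf Cre and -1.31 to -0.17 in Pdgf bound against total RNA, and from 0.62 to 1.56 in Pdgf Cre and 1.04 to 1.99 in Recruited against Pdgf bound RNA. Cnksr3 ranged from -0.77 to 0.24 in Recruited tumours against progenitors, from -0.14 to 0.33 in Recruited tumour against cortex total RNA and from -0.12 to 0.29 in Pdgf Cre bound against total RNA. The shift of Gpr17 minus Cnksr3 between tumours and progenitors ranged from -0.028 to 0.35, lowest without Pdgf Cre array 1. The -1.31 is without Pdgf bound array 2 alone, which leaves its high total partner in. With pairs left out whole, chosen after seeing the data, Gpr17 in Pdgf bound against total RNA ranged from -0.78 to -0.61 and did not pass, and in Pdgf Cre Gpr17 ranged from -0.24 to 0.06 and Cnksr3 from -0.16 to 0.23; the calls in Recruited tumours and of the differences between bound over total RNA kept their side. The 0.38 is without Recruited total array 1.

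Counts of genes that passed moved by more than 1.5 times in few comparisons. Neurons against cortex had 2765, but 4774 on the deposited and 5220 on the median scale. On the median scale Pdgf bound against total RNA had 5721, against 3157, and Pdgf Cre 5661, against 3726. For the ratios, Pdgf Cre against Pdgf had 362 on the spike-in scale, against 1209. Recruited against Pdgf had 1709 on it and 1744 with only the groups compared, against 2943, and Recruited against Pdgf Cre 1502 and 1713, against 2617. The deposited, median and spike-in scales moved the share of rises among called genes by over 10 points in 14, 14 and 15 comparisons and the median of all genes by up to 0.629, 0.950 and 0.587.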
